A study of Canis lupus familiaris with 5 samples.

Results

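The large subunit of the cytosolic ribosome was followed through its protein genes in canine heart muscle, in failing myocardium and in control myocardium. Members were chosen by gene symbol, as every probe set that the platform annotation pairs with exactly 1 symbol starting with RPL and a digit, or with RPLP0, RPLP1 or RPLP2, pseudogenes left out. The rule found 77 probe sets of 42 genes, among 3724 probe sets of 2416 genes with 1 symbol each. Expression was read on 5 oligonucleotide arrays, 3 of failing myocardium from dogs in congestive heart failure (failing 1a, 1b and 2a) and 2 of control myocardium (control 1a and 2a). Each failing array and control 2a carried total RNA pooled from 3 dogs, and the source of control 1a was not described. The way heart failure arose, the chamber, and the breed, age and sex of the dogs are not given in the sources used here. Failing 1a and 1b may be repeats of the same pool, since the labels leave this unsaid, and every p-value here reflects array-to-array spread that may be technical. Values are linear intensities, 1 per probe set and array, and with so few arrays their precision is limited.

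The large ribosomal subunit joins amino acids into protein. Its RNA core catalyses the bond, and its proteins fold that core, guide the new chain through the exit tunnel, and form the stalk that recruits the elongation factors. Messenger RNAs of ribosomal proteins begin with a run of pyrimidines, through which growth signals such as mTOR set their translation together, and heart muscle is known to raise ribosome content when it hypertrophies. The probe sets were annotated with human genes while the RNA came from dog, and 39 of the 42 symbols were found in the dog RefSeq table of assembly UU_Cfam_GSD_1.0. Ribosomal protein genes also have many near-identical processed pseudogenes, so the readings of single members are uncertain.

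Large subunit transcripts read lower in failing than in control myocardium at most of the probe sets bright enough to test, and no single member passed the adjusted threshold. The smallest p-values belonged to RPLP2, a stalk protein, at 0.303-fold, and RPL37 at 0.442-fold. The lowest folds, 0.265 in RPL7A and 0.281 at a dim probe set of RPL23, came with wide errors. In the order of p-values a second probe set of RPLP2 came next, then RPL30, RPL12, RPL36AL, RPL32, RPL28 and RPL22. Most members stood closer to control, and the 24 probe sets that lay below both control arrays on every failing array had a median of 0.671-fold.

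A probe set was tested when its mean log2 intensity, after raising values below 20 to that floor, reached the median of all probe sets, 7.13. Of the 77 members, 58 probe sets of 35 genes passed this filter and 19 did not. Over all 2301 tested probe sets, limma with Benjamini-Hochberg adjustment called 2, or 0.0869%, and 0 of them were members. At an unadjusted p under 0.05, 9 of 58 members (15.5%) were lower and 0 higher, where the shares over all tested probe sets were 3.35% lower and 6.13% higher. The count of 9 became 14 under scaling to the 75th percentile, where the share of all tested probe sets was 4.74%, and 3 when the intensity trend was dropped, where it was 1.91%. It was 5 with failing 1a left out (2.91% of all), 3 with control 1a left out (1.04% of all) and 2 with control 2a left out (1.13% of all). In the last of these fits 2 members were higher as well.

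Failing and control values were fully apart in 27 of the 58 members. All failing values lay below both control values in 24 members (41.4%), against 11.5% of all tested probe sets, and above both in 3 members (5.17%), against 18.3% of all. The distance was often small. In 6 of the 24 the lowest control value exceeded the highest failing value by less than 1.1 times, in 13 by 1.1 to under 1.5 times, and in 5 by 1.5 times or more. With failing 1a and 1b averaged as 1 sample, 29 members (50%) lay below control, against 15.6% of all tested probe sets. In 47 members the log2 difference, failing minus control, was below 0, and its median was −0.45, against 0.11 over all tested probe sets. Over the 52 members above the floor on every array the median was −0.38.

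The low readings were not those of a single failing array. Failing 1a lay below both control arrays in 38 of the 58 members, failing 1b in 33 and failing 2a in 40. The shares over all tested probe sets were 31.9%, 32.8% and 33.3%. Relative to the control mean, the median member stood at −0.32 on failing 1a, −0.21 on failing 1b and −0.40 on failing 2a, against −0.02 on control 1a and 0.02 on control 2a. The same medians over all tested probe sets were 0.11, 0.10 and 0.34 on the failing arrays. Summed over the 52 members above the floor everywhere, intensity was 289547, 310252 and 278536 on the failing arrays, against 379581 and 379483 on the control arrays. Leaving out the 2 probe sets of RPLP2, the sums were 281089, 299776 and 266818 on the failing arrays, against 348503 and 344543 on the control arrays. In pooled tissue RNA, fewer cells of a type and less RNA per cell cannot be told apart.

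**Figure D1:**
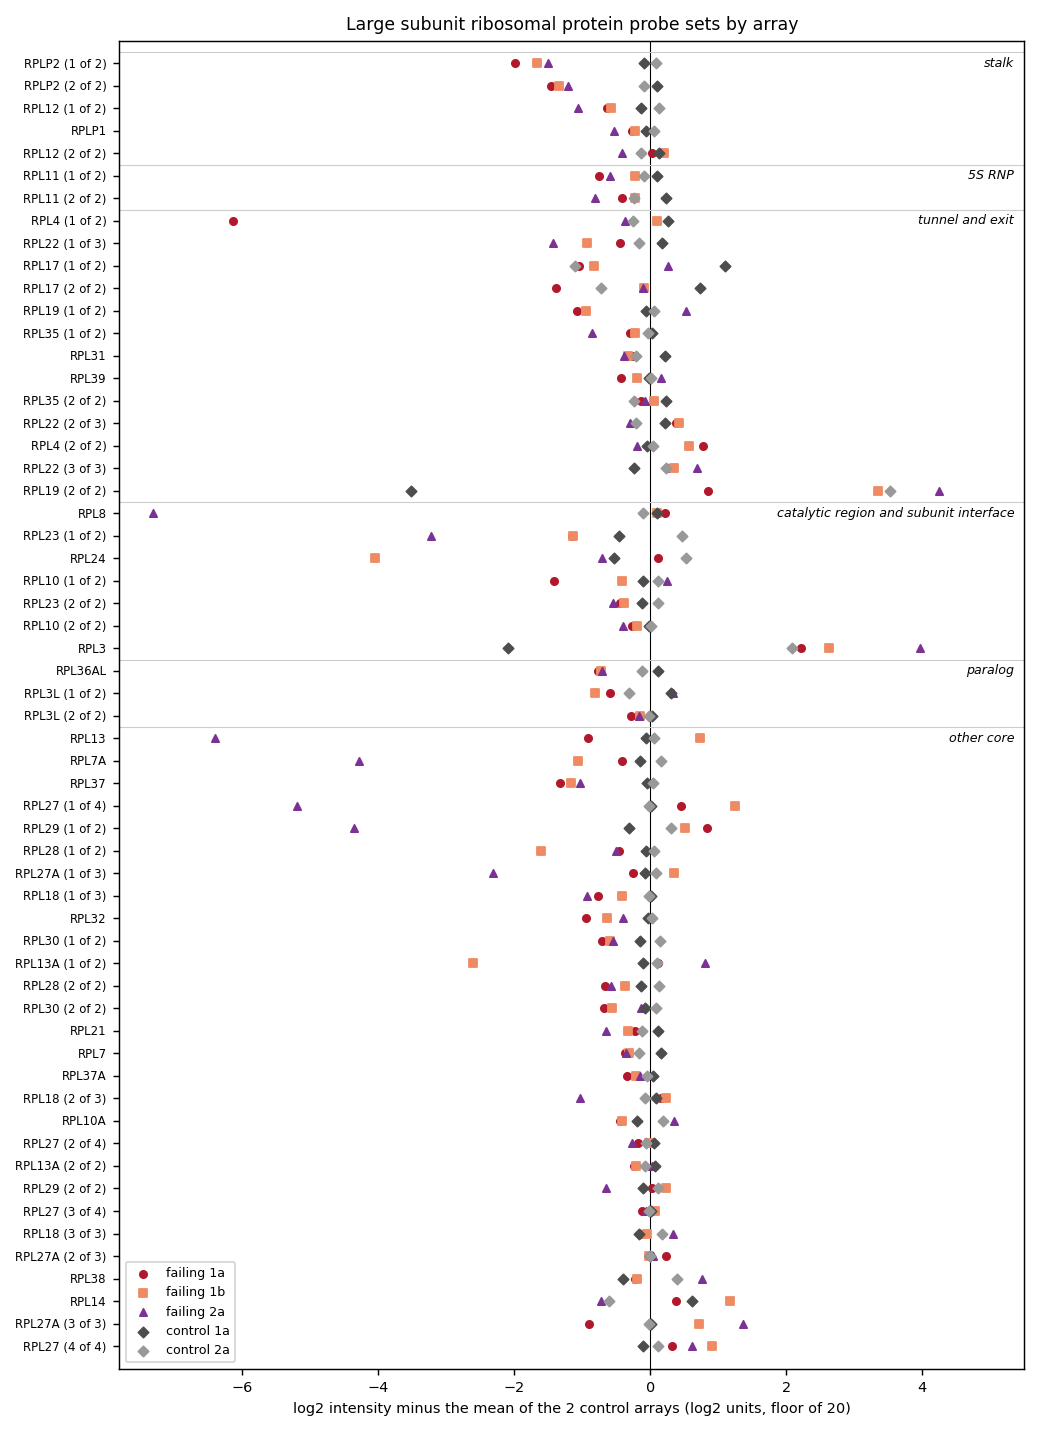
Each row is 1 of the 58 tested probe sets, sorted by role and then by log2 difference, and each point is 1 array, placed by its log2 intensity minus the mean of the 2 control arrays. Points of the failing arrays lie left of the control points in most rows, furthest in RPLP2 and RPL37 among rows with close-set points, and the 4 points furthest left (RPL8, RPL13, RPL4 and RPL27) are failing values that were below the floor of 20.

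Other measures also moved with the groups. For the GAPDH array control, intensity at the 3′ end divided by that at the 5′ end was 1.42, 1.44 and 1.32 on the failing arrays, against 2.15 and 2.32 on the control arrays. A two-sided exact permutation test gave p = 0.2, which is the smallest that 3 arrays against 2 can give. The same ratio of the actin control averaged 0.162 ± 0.065 on the failing arrays and 0.0992 ± 0.0131 on the control arrays (SD, n = 3 and 2), with overlapping groups (exact p = 0.6). Their part in the ribosomal readings was not tested. Failing 2a stood apart from the rest. Between it and failing 1a the median absolute log2 difference was 0.54 over the members and 0.86 over all tested probe sets, while failing 1a and 1b differed by 0.20 and 0.32, and the control arrays by 0.22 and 0.42. Without failing 2a, 30 of 59 tested members lay below control and 8 above, against 21.0% and 28.2% of all tested probe sets.

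The balance of lower and higher readings over all probe sets depended on the scale. As deposited, 264 of all tested probe sets lay below control and 420 above. Quantile normalization gave 343 below and 311 above, with a median log2 difference of −0.05 over all tested probe sets. Scaling to the 75th percentile gave 388 below and 279 above, with a median of −0.10. The members counted 24 below and 1 above under quantile normalization, and 28 below and 2 above under 75th percentile scaling. Relative to the median of all tested probe sets, the members' median was −0.56 as deposited, −0.43 with quantile normalization and −0.56 with scaling to the 75th percentile.

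Among the stalk genes RPLP2 stood furthest apart between the groups. RPLP2 and its partner RPLP1 are small acidic proteins that form the flexible arm of the stalk, and RPL12 sits at its base. At the brighter probe set of RPLP2 (HSPD189_r_at) the intensity was 7913, 9890 and 11073 on the failing arrays, against 29486 and 33545 on the control arrays. All failing values were thus below both control values, and the lowest control value was 2.66 times the highest failing value. The log2 difference was −1.72 ± 0.20 (SE), or 0.303-fold, with an adjusted p of 0.0790 in limma, and it had the smallest p of all 1011 tested probe sets with a difference below 0. Over its 14 alternatives the adjusted p ranged from 0.0425 to 0.440. The lowest came without failing 2a, a fit that keeps failing arrays 1a and 1b alone.

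The second probe set of RPLP2 (HSPD189_s_at) was dimmer and showed the same separation. It read 545.2, 585.8 and 645.7 on the failing arrays, against 1592 and 1395 on the control arrays, a log2 difference of −1.33 ± 0.39 (adjusted p = 0.365), or 0.397-fold. RPLP1 had 27923, 28744 and 23092 on the failing arrays, against 32118 and 34998 on the control arrays. Its groups did not overlap either, but its log2 difference was smaller, at −0.34 ± 0.17 (adjusted p = 0.590). The difference between RPLP1 and RPLP2 was not tested.

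RPL12 gave unlike readings at its 2 probe sets. The probe set without a suffix had 4768, 4953 and 3556 on the failing arrays, against 6720 and 8104 on the control arrays, a log2 difference of −0.75 ± 0.24 (adjusted p = 0.443). The other, HSPD4478_s_at, had 4663, 5260 and 3449 on the failing arrays, against 5028 and 4186 on the control arrays. There the groups overlapped and the log2 difference was −0.06 ± 0.26, which turned to 0.11 without failing 2a and to 0.07 without control 1a. Probe sets that the annotation pairs with RPL12 and a pseudogene together numbered 2 and were left out by the rule.

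**Figure D2:**
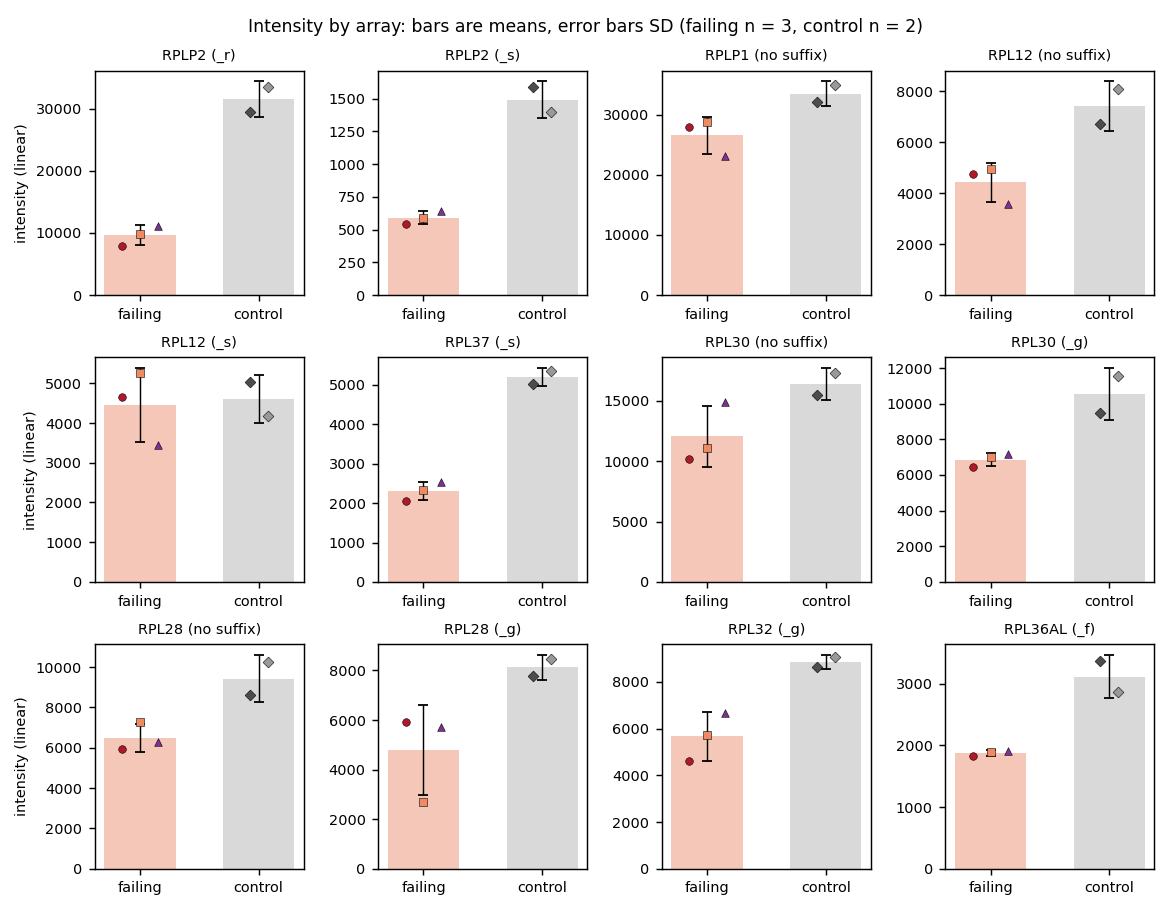
Linear intensity of 12 probe sets, those of the stalk genes and of RPL37, RPL30, RPL28, RPL32 and RPL36AL, with the suffix of each probe set's name in brackets. The genes beside the stalk were picked among lower members with low p-values. RPL22, whose probe sets differed in direction, is not shown. Bars are group means, error bars are SDs over 3 failing and 2 control arrays, and points are arrays (circle, failing 1a; square, failing 1b; triangle, failing 2a; diamonds, control). The groups are apart in 11 panels and overlap in RPL12 (_s).

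RPL11 binds the 5S ribosomal RNA together with RPL5 and, when assembly stalls, the p53 regulator MDM2. RPL5 was not analysed here. RPL11 had 8200, 11826 and 9107 on the failing arrays, against 14686 and 12887 on the control arrays, at its probe set without a suffix. The failing values lay below both control values, with a log2 difference of −0.52 ± 0.22 (adjusted p = 0.522). At HSPD1105_s_at the values were 8517, 9750 and 6466 on the failing arrays, against 13339 and 9625 on the control arrays, and the log2 difference was −0.48 ± 0.26. Here failing 1b exceeded control 2a slightly, so the groups overlapped. Its remaining probe set, HSPD1105_i_at, read between −282 and 31.6 on the 5 arrays and was not tested.

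Around the catalytic region and the face that meets the small subunit, 7 probe sets of 5 genes were tested. Of these, 6 (85.7%) had a log2 difference below 0, against 43.9% of all tested probe sets. On every failing array 3 (42.9%) lay below control and 1 (14.3%) above, against 11.5% and 18.3% of all. RPL23, which forms a bridge to the small subunit, lay below control at both its probe sets. The brighter had 5789, 6023 and 5380 on the failing arrays, against 7222 and 8511 on the control arrays (log2 difference −0.45 ± 0.18, adjusted p = 0.522). The dimmer had 478.0, 482.0 and 113.9 on the failing arrays, against 766.5 and 1460 on the control arrays (log2 difference −1.83 ± 0.88, adjusted p = 0.590). RPL10, added late in assembly beside the catalytic centre, had 6501, 6812 and 5905 on the failing arrays, against 7696 and 7878 on the control arrays. Its groups did not overlap at that probe set (log2 difference −0.28 ± 0.17), while its dimmer one had overlapping groups at −0.53 ± 0.57.

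The other genes of this region gave less stable readings. RPL24, another bridge protein, read 1262, 69.98 and 712.2 on the failing arrays, against 803.1 and 1675 on the control arrays, with overlapping groups. RPL8 read 3672 and 3373 on failing 1a and 1b and −163 on failing 2a, against 3388 and 2936 on the control arrays. Its log2 value of −2.33 on floored data thus came from failing 2a, and without that array it was 0.16. RPL3, whose tip reaches towards the catalytic centre, had 434.1, 582.9 and 1459 on the failing arrays, against 22.1 and 398.1 on the control arrays, and control 1a was close to the floor. It was the sole tested member that reached the filter through the failing arrays, since its control mean lay under it. Its log2 difference of 2.93 ± 1.43 (adjusted p = 0.590) therefore had to be above 0, and its other probe set was below 0 on all 5 arrays.

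Along the exit tunnel and its mouth, 13 probe sets of 7 genes were tested. Of these, 9 (69.2%) had a log2 difference below 0, against 43.9% of all tested probe sets. On every failing array 3 (23.1%) lay below control and 1 (7.69%) above, against 11.5% and 18.3% of all. RPL31, at the mouth of the tunnel, had 17244, 16636 and 15958 on the failing arrays, against 24076 and 17892 on the control arrays (log2 difference −0.32 ± 0.19). Its groups did not overlap, but the control arrays differed from each other by more than control 2a differed from the failing arrays. RPL35, which helps dock factors that receive the new chain, had 12824, 13405 and 8690 on the failing arrays, against 16046 and 15331 on the control arrays, at HSPD610_g_at (log2 difference −0.46 ± 0.24). At its other probe set the groups overlapped, with −0.06 ± 0.21, which turned to 0.18 without control 1a.

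RPL22, an RNA-binding protein near the tunnel mouth, read in opposite directions at its 3 probe sets. HSPD14038_i_at had 3863, 2759 and 1956 on the failing arrays, against 5919 and 4669 on the control arrays, a log2 difference of −0.93 ± 0.35 (adjusted p = 0.496). HSPD14038_s_at had 1517, 1615 and 2049 on the failing arrays, against 1078 and 1491 on the control arrays, and lay above control at 0.43 ± 0.33. The third had 0.17 ± 0.29 with overlapping groups, and −0.03 under 75th percentile scaling. RPL4, whose loop lines the tunnel, likewise had 0.38 ± 0.37 at one tested probe set, while the other read −217 on failing 1a against 1517 and 1090 on failing 1b and 2a.

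The remaining tunnel genes overlapped between the groups. RPL39, a very small tunnel protein, had a log2 difference of −0.15 ± 0.25. RPL17, which also lines the tunnel, had −0.53 ± 1.08 and −0.53 ± 0.95 at its probe sets, and these turned to 0.20 and 0.57 without control 1a. RPL19 had −0.50 ± 0.72 at HSPD138_at, and at another probe set control 1a read −20.2 against 2637 on control 2a, so that the value is set by the floor. All 3 probe sets of RPL23A were too dim to test, and RPL26 was not analysed here.

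The paralogs include RPL3L, which takes the place of RPL3 in ribosomes of striated muscle in mouse and human. At its brighter probe set (HSPD1686_r_at) RPL3L had 7350, 8021 and 7961 on the failing arrays, against 9051 and 8772 on the control arrays. All failing values were below control, by a small margin of 1.09 times between the nearest values, and the log2 difference was −0.20 ± 0.16 (adjusted p = 0.767). The dimmer probe set had overlapping groups at −0.36 ± 0.63. RPL36AL, a near copy of RPL36A, had 1822, 1889 and 1909 on the failing arrays, against 3360 and 2865 on the control arrays. The failing arrays lay close together and below both control arrays, with a log2 difference of −0.73 ± 0.24 (adjusted p = 0.452), or 0.604-fold.

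Among the other core proteins, 28 probe sets of 17 genes were tested. Of these, 22 (78.6%) had a log2 difference below 0, against 43.9% of all tested probe sets. On every failing array 11 (39.3%) lay below control and 1 (3.57%) above, against 11.5% and 18.3% of all. RPL37, a zinc-binding protein buried in ribosomal RNA, had 2066, 2320 and 2529 on the failing arrays, against 5034 and 5358 on the control arrays. The lowest control value was 1.99 times the highest failing value, and the log2 difference was −1.18 ± 0.22 (adjusted p = 0.278), or 0.442-fold. Over its alternatives the adjusted p ranged from 0.0716 to 0.764. RPL37A had 6205, 6795 and 7114 on the failing arrays, against 8120 and 7631 on the control arrays, and a log2 difference of −0.23 ± 0.17.

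RPL30 and RPL28 lay below control at both of their probe sets. RPL30, which in yeast binds and represses its own transcript, had 6430, 6985 and 7158 on the failing arrays, against 9502 and 11567 on the control arrays, at HSPD2280_g_at (log2 difference −0.61 ± 0.18, adjusted p = 0.385). At HSPD2280_at it had 10204, 11091 and 14940 on the failing arrays, against 15463 and 17322 on the control arrays (log2 difference −0.46 ± 0.22). In the second of these, failing 2a came close to control. RPL28, a protein that baker's yeast lacks, had 5931, 7275 and 6270 on the failing arrays, against 8595 and 10255 on the control arrays, at HSPD246_at (log2 difference −0.54 ± 0.19, adjusted p = 0.495). At HSPD246_g_at the log2 difference was −0.85 ± 0.40.

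RPL32 had 4602, 5730 and 6679 on the failing arrays, against 8644 and 9062 on the control arrays (log2 difference −0.66 ± 0.22, adjusted p = 0.466). RPL18 had 1548, 1984 and 1388 on the failing arrays, against 2652 and 2614 on the control arrays, at HSPD4507_r_at (log2 difference −0.70 ± 0.28, adjusted p = 0.522). Both genes were below control on every failing array, but the other tested probe sets of RPL18 had overlapping groups at −0.21 ± 0.43 and 0.04 ± 0.30. The last of these was −0.12 under quantile normalization and −0.16 under scaling to the 75th percentile. RPL7A had 4416, 2816 and 303.8 on the failing arrays, against 5272 and 6534 on the control arrays, so its log2 difference of −1.91 ± 1.16 (adjusted p = 0.676) leaned on failing 2a. RPL7 and RPL21 were below control on every failing array too, at −0.35 ± 0.22 and −0.40 ± 0.28.

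Other members of the core did not separate downwards. RPL27 had 11217 ± 799 on the failing arrays and 11493 ± 136 on the control arrays (SD, n = 3 and 2) at its brightest probe set, a log2 difference of −0.04 ± 0.16. At another, HSPD3364_r_at, it lay above control, with 1679, 2531 and 2059 on the failing arrays, against 1245 and 1446 on the control arrays (log2 difference 0.62 ± 0.31, adjusted p = 0.597). RPL27A had 18165, 15227 and 15825 on the failing arrays, against 15438 and 15421 on the control arrays, at HSPD6535_at, where the groups overlapped and the log2 difference of 0.08 ± 0.16 turned to −0.12 under 75th percentile scaling. RPL13A, which in human and mouse myeloid cells also leaves the ribosome to silence inflammatory transcripts, had −0.14 ± 0.17 at its brightest probe set.

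RPL38, needed for translation of Hox transcripts in mouse embryos, had 3100, 3150 and 6121 on the failing arrays, against 2744 and 4753 on the control arrays. Its groups overlapped, and the log2 difference of 0.11 ± 0.42 turned to −0.09 under 75th percentile scaling. RPL10A, RPL14, RPL29 and RPL13 had overlapping groups as well. Their log2 differences were −0.17 ± 0.34 for RPL10A, 0.28 ± 0.78 for RPL14 and −0.13 ± 0.31 for the brighter probe set of RPL29. RPL13 read 895.0, 2811 and −214 on the failing arrays, against 1614 and 1759 on the control arrays, so its value of −2.19 is set by the floor on failing 2a.

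The 19 probe sets that were too dim to test each had at least 1 array below the floor, and 7 genes had no tested probe set at all. These genes were RPL6, RPL9, RPL23A, RPL34, RPL35A, RPL36 and RPL41. Of the untested probe sets 6 were negative on all 5 arrays, 0 lay below control on every failing array and 3 above. One of these, HSPD30845_r_at of RPL41, had 103.6, 483.3 and 647.5 on the failing arrays, against 40.8 and 16.4 on the control arrays. The others, of RPL32 and RPL34, were negative on at least 1 failing array and on both control arrays. Counted over all 77 probe sets, 24 (31.2%) thus lay below control and 6 (7.79%) above, against 13.4% and 13.1% of all 4601 probe sets without the filter. Near the filter, RPL17 at a mean log2 intensity of 7.61 was just inside and RPL41 at 6.92 just outside.

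The direction at probe sets of the same gene was compared next. Of the 18 member genes with more than 1 tested probe set, 12 had every log2 difference below 0, 0 had every one above, and 6 had values on both sides. Of 339 other genes with more than 1 tested probe set, 67 (19.8%) had all below 0 and 94 had all above. RPLP2, RPL23, RPL28 and RPL30 were the 4 of these 18 member genes in which every tested probe set lay below control on each failing array. How many of the 339 other genes did so was not counted. Probe sets on both sides of 0 occurred in RPL4, RPL18, RPL19, RPL22, RPL27 and RPL27A. Probe sets of the same gene share the RNA of each array and are not replicates.

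**Figure D3:**
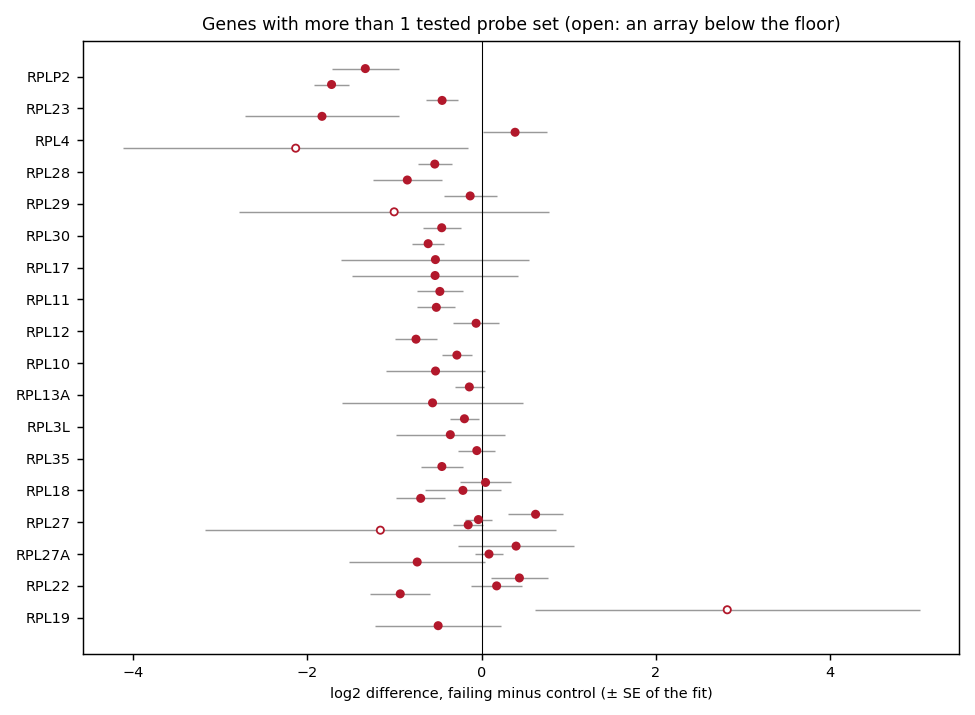
Log2 difference, failing minus control, with the standard error of the fit, for each tested probe set of the 18 genes that had more than 1. Open circles mark probe sets with an array below the floor, where the value depends on the floor. Both points of RPLP2, RPL23, RPL28 and RPL30 lie left of 0, and the points of RPL22 and RPL27 lie on both sides.

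Downward separation was commoner among bright probe sets in general, members or not. Splitting the 58 members at their median intensity of 3623, 15 of the 29 brighter and 9 of the 29 dimmer ones lay below control on every failing array. Of all 394 tested probe sets at or above that intensity, members included, 26.1% lay below control, and of the 1907 dimmer ones 8.44%. The share among the brighter members was 51.7%. The brighter members had a median standard error of 0.22 and the dimmer ones of 0.72. By the suffix of the probe set's name, 20 of the 23 members without a suffix and 9 of the 10 with _g had a log2 difference below 0, against 3 of the 8 with _r, the suffix of the brighter RPLP2 probe set.

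By its median and counts the small subunit was less displaced. Its list held 45 tested probe sets of 26 genes, 29 (64.4%) with a log2 difference below 0, against 43.9% of all tested probe sets. All failing values lay below control in 8 (17.8%) and above in 2 (4.44%), against 11.5% and 18.3% of all. The median was −0.20, or −0.31 relative to all tested probe sets. At an unadjusted p under 0.05, 0 were lower and 1 (2.22%) higher, against 3.35% and 6.13% of all. The higher one was a probe set of RPS9 with a log2 difference of 0.77. Limma called 0 at the adjusted threshold. The difference between the subunits was not tested. Relative to the control mean, the median of the small subunit was −0.19, −0.07 and −0.19 on failing 1a, 1b and 2a, against −0.32, −0.21 and −0.40 for the large subunit. On these arrays 44.4%, 33.3% and 62.2% of small subunit probe sets lay below both control arrays, against 65.5%, 56.9% and 69.0% of the members. The subunits were thus closer on failing 2a, where the mean was −0.82 for the small and −0.67 for the large subunit.

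**Figure D4:**
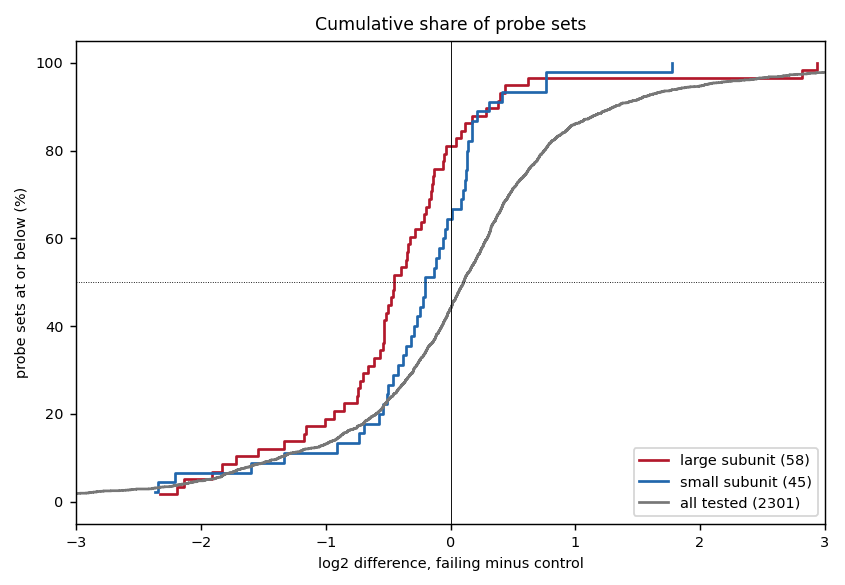
Cumulative percentage of probe sets by log2 difference, failing minus control, for 58 large subunit, 45 small subunit and all 2301 tested probe sets, drawn between −3 and 3. The large subunit curve reaches 81.0% at 0, the small subunit curve 64.4% and the curve of all tested probe sets 43.9%.

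Translation factors went in several directions, and 0 of them passed the adjusted threshold. Of 9 elongation factor probe sets 7 (77.8%) had a log2 difference below 0, against 43.9% of all tested probe sets. The median of the 9 was −0.59, beside −0.45 for the members. It was −0.053 over the 6 above the floor on every array, beside −0.38 for the members. The difference was not tested. On every failing array 2 (22.2%) lay below control and 1 (11.1%) above, against 11.5% and 18.3% of all tested probe sets. EEF1A1, which delivers transfer RNA to the ribosome, had 5067, 5034 and 4904 on the failing arrays, against 7390 and 8373 on the control arrays, at 1 of its probe sets (log2 difference −0.65 ± 0.18, adjusted p = 0.344). Its other probe sets had overlapping groups at −0.59 ± 0.33 and 0.16 ± 0.28. Of 29 initiation factor probe sets, 1 (3.45%) lay below control and 7 (24.1%) above, against 11.5% and 18.3% of all tested probe sets. The median log2 difference of the 29 was 0.13. PABPC1, the poly(A)-binding protein, had 3672, 3250 and 3443 on the failing arrays, against 1170 and 1666 on the control arrays (log2 difference 1.31 ± 0.27, adjusted p = 0.305). EIF3E, a subunit of the factor that prepares the small subunit, had 4226, 4469 and 3454 on the failing arrays, against 2471 and 2429 on the control arrays (log2 difference 0.72 ± 0.23, adjusted p = 0.443).

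Transcripts outside the ribosome that carry the same pyrimidine run were read as a list of 18 tested probe sets, with a median log2 difference of 0.06. On every failing array 2 (11.1%) lay below control and 6 (33.3%) above, against 11.5% and 18.3% of all tested probe sets. The difference from the members was not tested. It overlaps the factor lists, and EEF1A1, PABPC1 and EIF3E count in it. TPT1, the translationally controlled tumour protein, had 0.40 ± 0.21, −0.17 ± 0.19 and 0.51 ± 0.36 at its 3 probe sets. Of 7 tested probe sets of ribosome assembly factors 2 (28.6%) lay below control and 2 (28.6%) above, against 11.5% and 18.3% of all. The 2 below, of NHP2 and UBTF, each read below 0 on failing 2a. Of 7 tested probe sets of the mitochondrial large subunit 1 (14.3%) lay below control and 0 above, against the same shares of all. That 1 was of MRPL33, with a log2 difference of −0.58 ± 0.29.

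The tissue label was checked against cardiomyocyte markers, of which 12 of 16 were on the array and 17 of 26 probe sets were above the floor on all 5 arrays. Their summed intensity was 161351 to 174444 on the failing arrays and 190319 to 193496 on the control arrays. The median log2 difference over 19 tested probe sets was 0.02. In 2 of them (10.5%) each failing value was over both control values, against 18.3% of all tested probe sets. In 5 (26.3%) each was under both, against 11.5% of all. These 5, probe sets of MYH6, MYL3, TTN, MB and CKM, were also lower at an unadjusted p under 0.05 (26.3%, against 3.35% of all). All but that of CKM were above an intensity of 3623, where 26.1% of all tested probe sets lay below control. The CKM probe set read −893, 694 and −2314 on the failing arrays, so its value depends on the floor. A brighter CKM probe set had overlapping groups at 0.16 ± 0.32. Other tested probe sets also overlapped, at 0.69, 0.61 and 0.08 for TTN and −1.30 for MYL3. The myosin heavy chain gene MYH6 had a log2 difference of −0.54 and the myoglobin gene MB one of −0.51, while ACTN2, of the Z-disc, lay above control at 1.81. Limma called 0 cardiomyocyte markers at the adjusted threshold.

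Some markers of other cell types moved with the groups as well. Fibroblast markers, 8 of 10 on the array, summed to 8884 to 12246 on the failing arrays and 6628 to 8018 on the control arrays. Of 8 tested probe sets 7 were above 0 and 1 (12.5%) below, against 43.9% of all below 0. Their median log2 difference was 0.37. On every failing array 2 (25%) lay above control, against 18.3% of all. These were of the collagen genes COL3A1, at 2.36 (adjusted p = 0.278 in limma), and COL1A2, at 1.28. The groups overlapped in DPT (0.057), LUM (0.25), PDGFRA (−0.014) and POSTN (0.017), and also in COL1A1 and FBLN1. Endothelial markers, 8 of 12 on the array, also had 7 of 8 tested probe sets above 0, with a median of 0.75, and 3 (37.5%) lay above control on every failing array, against 18.3% of all. Their sums overlapped, at 7824 to 13355 on the failing arrays and 10454 to 14272 on the control arrays. The opposite direction came from 1 probe set of ENG, with 1598, 1488 and 522.6 on the failing arrays, against 5158 and 8319 on the control arrays. Another tested probe set of ENG had overlapping groups, with a log2 difference of 0.11 ± 0.47.

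Markers of smooth muscle and pericytes, 6 of 10 on the array, summed to 60643 to 85559 on the failing arrays and 30559 to 53590 on the control arrays. Most of that sum was 1 probe set of DES, a gene that cardiomyocytes also express, with 56032, 81232 and 60345 on the failing arrays, against 48719 and 25874 on the control arrays. LMOD1 lay above control at a log2 difference of 0.95 and TAGLN below it at −1.01, while ACTA2 was too dim to test and CNN1 and PDGFRB were below the floor on all 5 arrays. Markers of macrophages and neutrophils, 7 of 12 on the array, summed to 3103 to 7688 on the failing arrays and 3242 to 4467 on the control arrays, and CD163, FCER1G and ITGAM were below the floor on all 5. The sums of erythroid markers (2 of 8 on the array) and adipocyte markers (4 of 6) overlapped too, but some of their probe sets did not. Among 4 tested adipocyte probe sets, 2 (50%) read lower in all failing samples than in either control. That share was 11.5% over all tested probe sets. They belonged to CFD (log2 difference −0.13) and PLIN1 (−0.34). Among 3 tested erythroid probe sets, 1 of HBB (33.3%) read higher than either control throughout, at 0.94, where the share of all was 18.3%. Neither the lymphocyte nor the nerve marker list had a tested probe set. The part of these cell types in the ribosomal readings was not tested.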

How the data were processed

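RNA of 5 samples was hybridised, 1 array each, and arrays were grouped by sample title into 3 failing and 2 control arrays. The deposited table holds 1 linear intensity per probe set and array. Its software and normalization are not given in the sources used here. From the values, the mean of every array without its lowest and highest 2% is 800, and 34.7% to 39.9% of probe sets per array are below 0. Columns of other samples numbered 0.

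Of 4653 probe sets, 52 array controls were left out. Of the other 4601, 3724 had 1 symbol in the platform annotation, 72 several and 805 none. Intensities under 20 were set to 20 before log2 was taken. Where an array was below this floor the difference depends on it, and the text gives no fold. The 2301 probe sets with a mean log2 intensity at or above the median of 7.13 entered limma 3.58.1 under R 4.3.3 (eBayes with trend), with two-sided p-values, Benjamini-Hochberg adjustment over all of them and a threshold of 0.05. A log2 difference is given with its standard error and a mean intensity with its SD. The fit was tested beforehand on simulated data with independent arrays. The simulated log2 differences were larger than those of most members, so smaller ones were not covered. Ratios of array controls were compared by exact permutation tests over arrays.

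Members and lists were chosen with earlier results of these data known. Genes were named by a rule: members with the largest moderated statistics, all probe sets of the stalk, 5S, tunnel, catalytic and paralog groups, genes with several probe sets, and up to 4 genes per direction of each other list, of which a part is described. Besides these groups, lists of other translation genes and 9 lists of cell type markers were read. Coordinates and sequences are not given, as the table names no genome build. The title number was tried as a pairing: the differences between number 1 and number 2 arrays correlated at r = 0.04 between the groups over 2301 probe sets, and the labels state no pairing.

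Alternatives were a floor of 100, quantile and 75th percentile scaling, no filter or a stricter filter, 1 probe set a gene, no intensity trend, failing 1a and 1b averaged, the title number as a block, and each array left out in turn. The counts without the 2 RPLP2 probe sets were added after seeing the data.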

Additional observations from a re-analysis of the deposited data

How the results depend on the processing

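Over 14 alternatives the median log2 difference of the members stayed below 0. Members below control on every failing array numbered 22 to 31 of 44 to 77 tested, or 18 of 35 with 1 probe set a gene. The share over all tested probe sets was 11.5% to 21.0%. With an array left out the members numbered 25 to 31 (42.4% to 52.5%), against 15.2% to 21.0% of all tested probe sets. The replicate block cannot change the count of members below control. With it 12 members (20.7%) were lower at an unadjusted p under 0.05, against 4.69% of all tested probe sets. The median over all 58 members was then −0.39. The median was −0.66 under 75th percentile scaling, −0.28 without the filter, −0.35 with the filter at the 75th percentile and −0.34 with 1 probe set a gene, and −0.44 to −0.29 with an array left out. Members at an unadjusted p under 0.05 and lower numbered 14 under 75th percentile scaling and 3 without the trend, and 2 to 11 with an array left out. Higher ones numbered 1 without the filter, 1 with the replicate block and 0 to 2 with an array left out. Members above control on every failing array numbered 1 (1.72%) after quantile normalization, against 13.5% of all tested probe sets. With 1 probe set a gene they numbered 1 (2.86%), against 19.6%. They numbered 6 (7.79%) without the filter, against 13.1%, and 5 (8.62%) with failing 1a and 1b averaged, against 24.0%. With an array left out they numbered 4 to 8 (6.90% to 13.6%), against 24.9% to 31.2%. Members past the adjusted threshold numbered 0 to 1 with an array left out, and the 1 was RPLP2 without failing 2a (adjusted p = 0.0425). Over all probe sets the calls numbered 4 with a floor of 100, 6 without the filter, 0 with the stricter filter, 1 with 1 probe set a gene, 6 without the trend, 0 with failing 1a and 1b averaged, 0 with the replicate block and 0 to 21 with an array left out. Without RPLP2, chosen after seeing the data, 22 of 56 members (39.3%) lay below control, against 11.5% of all tested probe sets. Of the 58 members 38 kept their direction under every alternative and 20 did not. Scaling to the 75th percentile gave −0.088 for RPL38, −0.031 for RPL22 (HSPD14038_r_at), −0.16 for RPL18 (HSPD4507_i_at) and −0.12 for RPL27A (HSPD6535_at), and quantile normalization gave −0.12 for the RPL18 probe set. With an array left out, log2 differences ranged from −1.92 to 0.67 for the dimmer RPL29 probe set, −0.31 to 0.13 for RPL29 (HSPD2171_f_at), −0.70 to 6.34 for the RPL19 probe set with control 1a below the floor, −0.43 to 0.018 for RPL10A, −0.094 to 0.0048 for the brightest RPL27 probe set, −2.37 to 0.85 for RPL27 (HSPD3364_i_at), −0.28 to 0.51 for RPL38, −1.25 to 0.46 for RPL13A (HSPD1267_g_at) and −3.60 to 0.16 for RPL8. They ranged from −0.039 to 0.40 for RPL22 (HSPD14038_r_at), −0.33 to 0.89 for RPL14, −0.087 to 1.04 for RPL27A (HSPD3165_r_at), −1.28 to 0.043 for RPL27A (HSPD6535_g_at), −0.20 to 0.11 for RPL12 (HSPD4478_s_at), −0.13 to 0.21 for RPL18 (HSPD4507_i_at), −0.43 to 0.19 for RPL18 (HSPD4507_s_at), −1.26 to 0.20 for RPL17 (HSPD4548_at), −1.64 to 0.57 for RPL17 (HSPD4548_g_at) and −0.29 to 0.18 for RPL35 (HSPD610_at). The cause of these changes was not tested. An array below the floor occurred in 6 of the 58 tested members.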
